A study of Mus musculus with 2 samples.

Results

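Lipoprotein lipase, apolipoproteins and lipoprotein receptors were followed as 8 genes, Lpl, Angptl4, Apoe, Apod, Apoc1, Apob, Lrp1 and Vldlr. They were chosen by name, and every gene probe on the array that carried one of these names was used. This gave 15 of 41174 gene probes, and 8 of 27962 gene names. The study set the RNA of adipocyte-derived microvesicles (ADMs), membrane particles shed into the medium, against the RNA of their donor cells. These were 3T3-L1, an established mouse preadipocyte line grown in 10% FCS and turned into adipocytes with insulin at 10 µg/ml, 0.5 mM IBMX and 0.25 µM dexamethasone. ADMs were pelleted from the medium by ultracentrifugation, and the donor adipocytes were taken, on day 11 after induction, so both RNAs share line, treatment and time, and 250 ng of each was labelled. Each of 2 biological replicates paired 1 ADM RNA with 1 donor cell RNA on a 2-colour array, the ADM RNA in Cy5 in replicate 1 and in Cy3 in replicate 2. All cells came from 1 line in culture, and no animal tissue was measured. The directions rest on the dye labels, and the names ADM-labelled and cell-labelled are used for the RNAs. The labels call the replicates biological but do not say that the cultures were separate. The p-values rest on the spread between these 2 arrays, which may be technical. For each probe that spread is moderated by the spread of all tested probes, which carries most of the weight.

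Lipoprotein lipase is made by adipocytes, secreted, carried to the wall of capillaries and there splits the triglyceride of circulating lipoproteins. Apolipoproteins are the protein coat of these particles and steer them to lipases and to receptors. Lipoprotein receptors take up particles and their remnants through endocytosis. In fat, the lipase and its inhibitor Angptl4 set how much lipoprotein fatty acid enters the adipocyte.

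Signals were not balanced between the RNAs. The 99th percentile of net signal, the mean of a spot less its local background, was 44880 scanner units in ADM-labelled against 645 in cell-labelled RNA on array 1, and 16960 against 2261 on array 2. Among probes well above background in both RNAs, the median net ratio was 65.2-fold in replicate 1 and 8.84-fold in replicate 2. The 25th percentile of their log2 net ratio was 5.17 and 2.36. Net signals without overlap between the RNAs, given for genes below, are therefore common on these arrays and not particular to those genes. The share of all probes without overlap was not counted. Adipocyte markers (Adipoq, Fabp4, Plin1 and 7 others) were well above background on both arrays for 10 of 10 in the ADM-labelled and 9 of 10 in the cell-labelled RNA. Their summed net signal ran from 1060000 to 2116000 scanner units in the former and from 7879 to 64270 in the latter. Markers of hepatocytes and enterocytes, the main makers of plasma apolipoproteins, were seen for 1 of 9 (Tat) in either RNA, with sums from 62.6 to 138 and from 91.4 to 167, while Alb was not well above background. Of 9 macrophage markers 4 (Lyz2, Marco, Cd14 and Cd68) were seen in the ADM-labelled RNA (sum 2419 to 6079). In the cell-labelled RNA 3 were seen (161 to 363), the same without Cd68. Lyz2 was the brightest, at 4196 and 1658 net in the ADM-labelled and 68.6 and 174 in the cell-labelled RNA. The pan-leukocyte gene Ptprc and the macrophage gene Adgre1 were not well above background. Of 8 endothelial markers only Gpihbp1 was seen in both RNAs on both arrays, with sums from 97.0 to 255 and from 94.9 to 173. The part of macrophage transcripts in the values below was not tested.

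The scaling decides what a ratio means here. Each ratio is the log2 of the ADM-labelled signal divided by the cell-labelled signal. Before scaling, the ratio rose with the brightness of a probe and then levelled off. A loess curve, a smooth line through all gene probes, sets each probe against probes of similar brightness, and 0 is then the middle of that brightness. The usual span of 0.3 ran above the brightest probes: at a mean log2 brightness of 14 or more, the median after loess was -2.33 in replicate 1 (69 probes) and -1.17 in replicate 2 (99 probes). At 10 to 12 it was 0.02 and 0.07. At 8 to 10, the range of the downstream Lrp1 and upstream Vldlr probes, it was 0.16 and 0.16, so the curve ran below the median there. With a span of 0.05, chosen after this was seen, the brightest medians were -0.54 and -0.27, and those at 8 to 10 were -0.01 and 0.01. Both Lpl probes, Apoc1 and Angptl4 lie in the bright range, so both spans are given for them. For the other detected probes the means with the span of 0.05 are given further below. The scanner's own processed ratio and median centring, which removes no trend, put the median of all tested probes at 0.69 and 2.04, against 0.07 for loess. Values under those scalings are read against these medians. Since median centring keeps the rise with brightness, a bright probe can lie above its median and yet below probes of like brightness.

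**Figure D1:**
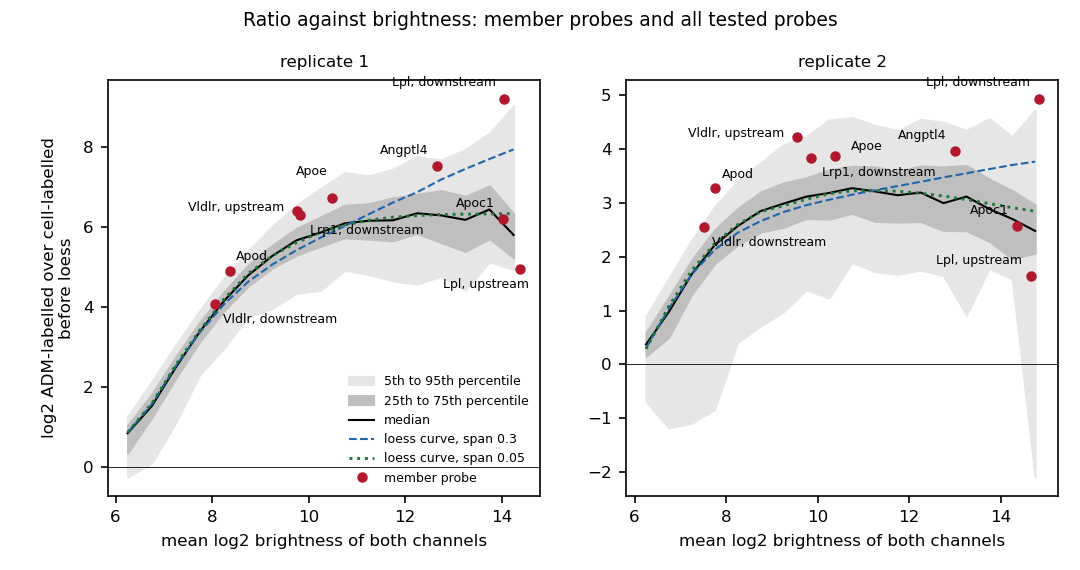
Log2 ratio before loess (vertical) against mean log2 brightness of both channels (horizontal) for each array, with bands and a black median line for all tested probes in bins of brightness, the loess curves as dashed (span 0.3) and dotted (span 0.05) lines, and 1 point per detected member probe. The dashed curve lies above the median at the bright end, where it passes above Apoc1 in both replicates, while the downstream Lpl probe lies above both curves and the upstream Lpl probe below both.

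Lpl, the gene of lipoprotein lipase, gave opposite answers from its 2 probes. The upstream probe (mm7 chr8:67355909-67355968, plus strand) read 118600 and 45480 scanner units net in the ADM-labelled RNA of replicates 1 and 2, and 3811 and 14560 in the cell-labelled RNA. Both ADM-labelled values were above both cell-labelled values. In bulk RNA, fewer vesicles or cells with a transcript and less of it in each cannot be told apart. The net ratio was 31.1-fold in replicate 1 and 3.12-fold in replicate 2, under the median net ratio of each array. After loess its log2 ratio was -3.39 and -2.12, a mean of -2.75 ± 0.90 (SD, n = 2; limma adjusted p = 0.0236), so it lay below the curve on both arrays. With the span of 0.05, and only spots with a local background over 100 scanner units left out, the mean was -1.30 ± 0.12 (SD, n = 2; limma adjusted p = 0.00828). The scanner's ratio was -1.21 and -1.13. With median centring the sign turned, to 2.97, which is above the median of all tested probes. Before loess its log2 ratio was 4.94 and 1.64, under the medians of 5.80 and 2.48 of probes of like brightness.

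The downstream Lpl probe (mm7 chr8:67361126-67361185), 5217 bases further along the transcript's strand, read 411600 and 160600 net in the ADM-labelled RNA and 649 and 5188 in the cell-labelled RNA. These groups did not overlap either, and the net ratios of 635-fold and 31.0-fold were above the array medians. On array 1 the scanner marked its local background as an outlier, so it had no value there in the main analysis, and 1.16 in replicate 2. When only local backgrounds over 100 were left out, a setting chosen after the data were seen, its log2 ratio was 1.32 and 1.16, a mean of 1.24 ± 0.11 (SD, n = 2; limma adjusted p = 0.0117). With the span of 0.05 the mean was 2.49 ± 0.54 (SD, n = 2; limma adjusted p = 0.00802), and the scanner gave 3.09 and 2.21. It was thus higher under both spans and on the scanner's scale.

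The gap between the Lpl probes did not depend on the scaling. The downstream minus the upstream log2 ratio was 4.44 and 3.27 after loess in replicates 1 and 2, 4.26 and 3.32 with the span of 0.05, 4.35 and 3.31 in net signal, and 4.30 and 3.34 on the scanner's scale. Of 4407 genes with 2 or more tested probes, 53 (1.20%) had a range between probes at least as large as the 3.86 of Lpl, and the median range was 0.29. The downstream probe was the higher in 54.9% of 4293 genes whose probes could be ordered. Both probes were read at the scanner's low gain in the ADM-labelled channel on both arrays and at the normal gain in the cell-labelled channel, as were Angptl4 and Apoc1, and the part of this in the gap was not tested. No direction for Lpl as a gene follows from these probes.

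Angptl4, a secreted protein that inactivates lipoprotein lipase, had 1 probe (mm7 chr17:31849774-31849833, minus strand). It read 87650 and 32090 net in the ADM-labelled and 429 and 2014 in the cell-labelled RNA. The groups did not overlap, and the net ratios were 204-fold and 15.9-fold. After loess the log2 ratio was 0.21 and 0.44, a mean of 0.33 ± 0.16 (SD, n = 2; limma adjusted p = 0.151), which did not pass the threshold of 0.05. With the span of 0.05 and only local backgrounds over 100 left out it was 1.03 ± 0.24 (SD, n = 2; limma adjusted p = 0.0180), and the scanner gave 1.28 and 0.94. Angptl4 was positive on both arrays under each of these. It also passed the threshold at the span of 0.3 with a normexp offset of 10 (0.80; limma adjusted p = 0.0392) and with the scanner's processed signals (limma adjusted p = 0.0437). It did not pass with plain subtraction (limma adjusted p = 0.0936), an eBayes trend (0.478), robust eBayes (0.151) or scaling between arrays (0.0996). Nor did it pass with changed filters, with the local background flag ignored, or at the span of 0.3 with only backgrounds over 100 left out (0.41; limma adjusted p = 0.0738).

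Apoe, the apolipoprotein that binds lipoprotein receptors and is made by adipocytes and macrophages as well as liver, was spotted 10 times per array (mm7 chr7:17378757-17378816, minus strand). Over its spots the mean net signal was 14130 and 4897 scanner units in the ADM-labelled and 87.0 and 281 in the cell-labelled RNA, with no overlap. After loess, its 7 and 8 spots without an outlier flag gave log2 ratios of 0.71 to 0.85 (replicate 1) and 0.66 to 0.92 (replicate 2). The array means were 0.77 and 0.78, a mean of 0.77 ± 0.0022 (SD, n = 2; limma adjusted p = 0.0284), so Apoe was higher in the ADM-labelled RNA. The SD between the arrays was smaller than the SD between spots on either array, 0.05 and 0.08. The scanner's processed signals gave 0.92 with a limma adjusted p of 0.0578 and so missed the threshold.

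Apoc1, a small apolipoprotein that inhibits lipoprotein uptake and lipases, lies next to Apoe, with 6816 bases between the probes (mm7 chr7:17371881-17371940, minus strand). It read 142600 and 50970 net in the ADM-labelled and 1911 and 8566 in the cell-labelled RNA, again without overlap. On array 1 its local background carried the outlier flag, which left -1.15 in replicate 2 alone. With only local backgrounds over 100 left out, the log2 ratio after loess was -1.69 and -1.15, a mean of -1.42 ± 0.38 (SD, n = 2; limma adjusted p = 0.0179). With the span of 0.05 it was -0.24 ± 0.14 (SD, n = 2; limma adjusted p = 0.232), the scanner gave 0.04 and -0.23, and median centring gave 4.04. Apoc1 was called lower with the span of 0.3 and not with the span of 0.05, and both curves ran above the median of the brightest probes, the former by more. Apoe stayed above Apoc1 on each scale: by 2.52 and 1.94 after loess, by 0.88 and 1.02 with the span of 0.05, and by 0.98 and 1.03 on the scanner's scale. The other genes of this cluster, Apoc4 (0.10 ± 0.12, SD, n = 2; limma adjusted p = 0.579) and Apoc2, the activator of lipoprotein lipase (-0.37 ± 0.11, SD, n = 2; limma adjusted p = 0.111), did not pass the threshold.

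Apod, a secreted lipid-binding lipocalin not related to the other apolipoproteins, had 1 probe whose match spans 2986 bases (mm7 chr16:30974888-30977873, minus strand). It read 1743 and 620 net in the ADM-labelled RNA and 8.53 and 12.3 in the cell-labelled RNA, where it was not well above background on either array. Its log2 ratio after loess was 0.68 and 1.14, a mean of 0.91 ± 0.32 (SD, n = 2; limma adjusted p = 0.0391). Apod was thus called higher in the ADM-labelled RNA, by a mean of 1.88-fold on the loess scale. Here the bright RNA is set against the probe's own dim value. Taking instead the dimmest value of any probe well above background, where that was higher, left the 1.88-fold unchanged. It is an estimate and not a lower bound, since replicate 1 alone gave a smaller log2 ratio, 0.68. With the cell-labelled signal not well above background, the size of the difference is not settled. The scanner's ratio was 2.98 and 3.34. Apod passed the threshold under each alternative that tested it except where spots with an outlying local background were kept (0.12).

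Apob, the structural protein of chylomicrons and VLDL made by gut and liver, had 5 probes between 7954595 and 7972366 on chromosome 12 (mm7, plus strand). None was well above background in either RNA on either array. Their net signals ran from 0.03 to 6.77 scanner units in the ADM-labelled and from -6.05 to 10.52 in the cell-labelled RNA, so the groups overlapped and no ratio was tested. Apob was not detectable at this signal.

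The receptors of the set gave their clearest readings from 1 probe each. Lrp1, the large endocytic receptor for Apoe-rich remnants and many other ligands, read 7934 and 3451 net in the ADM-labelled and 50.5 and 187 in the cell-labelled RNA (mm7 chr10:127039905-127039964, minus strand). The groups did not overlap. Its log2 ratio after loess was 0.80 and 0.86, a mean of 0.83 ± 0.04 (SD, n = 2; limma adjusted p = 0.0260). A probe 49224 bases upstream, annotated to a cDNA clone named Lrp1 (mm7 chr10:127089129-127089188), was not well above background in either RNA, with 27.0 and 7.44 net in the ADM-labelled and 5.13 and -2.08 in the cell-labelled RNA.

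Vldlr, the receptor for triglyceride-rich particles that is abundant in fat, heart and muscle, had 2 probes. The upstream probe (mm7 chr19:26949577-26949636, plus strand) read 7867 and 3171 net in the ADM-labelled and 42.0 and 114 in the cell-labelled RNA. Its log2 ratio was 0.96 and 1.33, a mean of 1.14 ± 0.26 (SD, n = 2; limma adjusted p = 0.0240), so Vldlr was higher in the ADM-labelled RNA by this probe. The downstream probe, annotated to a cDNA clone (mm7 chr19:26953904-26953963), read 1034 and 386 net in the ADM-labelled and 13.4 and 17.4 in the cell-labelled RNA, where it was above background on 1 of 2 arrays. The mean of 0.43 ± 0.27 on the log2 scale (SD, n = 2; limma adjusted p = 0.128) did not pass the threshold. The upstream minus the downstream ratio was 0.74 and 0.71 after loess, and 20.1% of genes with several tested probes had a range at least as large. On the scanner's scale this difference was 0.12 and -0.56, so it did not hold there, and the downstream probe itself was called higher with the processed signals (1.84; limma adjusted p = 0.0268).

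**Figure D2:**
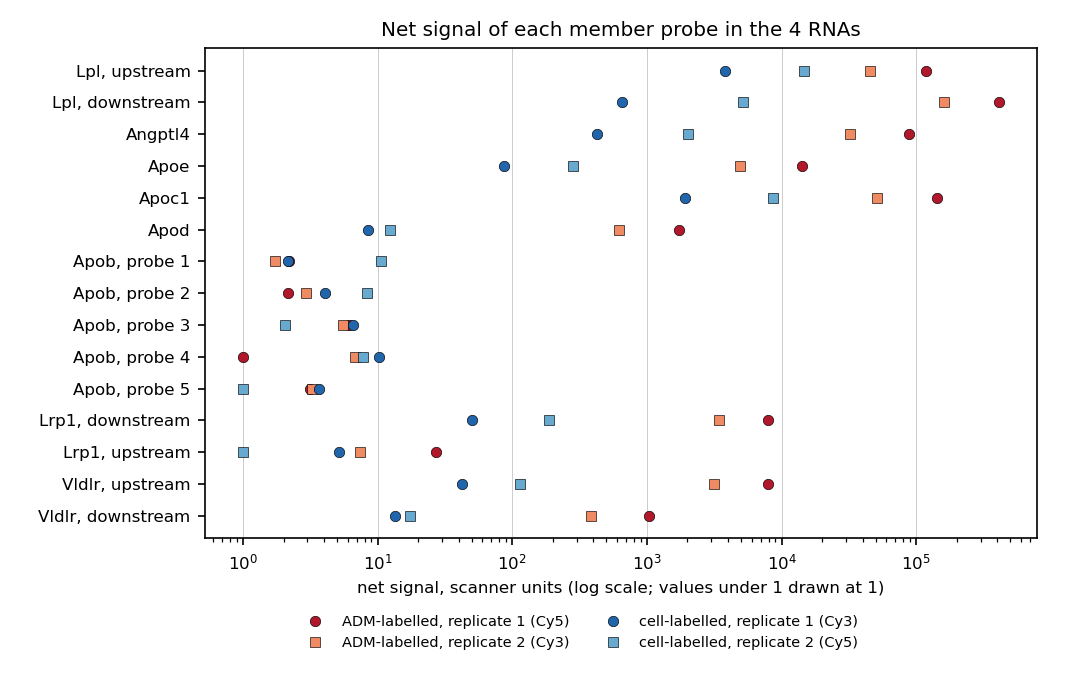
Net signal in scanner units on a log axis for each of the 15 probes, with 1 point for each of the 4 RNAs (values under 1 are drawn at 1). For the 9 detected probes both ADM-labelled points lie to the right of both cell-labelled points, while the 5 Apob probes and the upstream Lrp1 probe stay near background. The median net ratio of all probes detected in both RNAs was 65.2-fold and 8.84-fold, so this order is not particular to the 9.

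The stretches of 250 bases before the gene starts are shown for Apod, Lrp1 and Vldlr, which were called higher together and differ in what stands before their starts. They come from RefSeq on GRCm38.p6, a later build than the array's mm7, and run 5′ to 3′ on the gene's strand. Capitals mark matches on either strand to the TATA box (TATAAA), the CCAAT box or the GC box (GGGCGG).
Apod, chr16:31314809-31315058, minus strand: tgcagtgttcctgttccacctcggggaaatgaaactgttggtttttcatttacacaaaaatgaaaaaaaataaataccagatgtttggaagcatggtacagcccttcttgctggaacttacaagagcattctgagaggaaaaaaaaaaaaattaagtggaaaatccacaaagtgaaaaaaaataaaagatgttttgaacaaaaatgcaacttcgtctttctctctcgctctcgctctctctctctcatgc
Lrp1, chr10:127621149-127621398, minus strand: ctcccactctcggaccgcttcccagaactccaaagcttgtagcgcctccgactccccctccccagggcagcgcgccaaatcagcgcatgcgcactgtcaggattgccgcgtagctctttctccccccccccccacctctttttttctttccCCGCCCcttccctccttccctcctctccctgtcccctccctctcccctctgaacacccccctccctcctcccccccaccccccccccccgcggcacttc
Vldlr, chr19:27216770-27217019, plus strand: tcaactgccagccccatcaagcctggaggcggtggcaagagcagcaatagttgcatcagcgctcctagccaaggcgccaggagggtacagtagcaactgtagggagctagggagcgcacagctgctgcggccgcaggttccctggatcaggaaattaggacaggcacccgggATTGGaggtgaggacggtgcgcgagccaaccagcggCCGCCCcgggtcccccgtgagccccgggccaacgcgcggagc
The Apod stretch held none of these motifs and 36.4% G and C, against a median of 52.4% over all 32851 promoters of the table. The Lrp1 stretch held 1 GC box and 67.2% G and C, and this Vldlr stretch 1 CCAAT box, 1 GC box and 66.4% G and C. A second Vldlr start in the table held none and 41.6% G and C. Of the 3 Apoe starts, 1 held a TATA box, as did the start of the undetected Apob. Over all promoters of this length 12.4% held the TATA box, 33.8% the CCAAT box and 32.7% the GC box, so no motif was common to the genes called higher. Lpl, Angptl4 and Apoc1 had no entry in the table.

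Of the 15 probes, 7 had values on both arrays and passed the filter, and 4 of them (Apoe, Apod, Lrp1 and Vldlr, upstream) were higher and 1 (Lpl, upstream) lower in the ADM-labelled RNA. Over all 18117 tested probes, 5.53% were higher and 10.9% lower. Apod passed the filter through the ADM-labelled RNA alone. With the filter on both RNAs, Apod was not tested. Of 5 member probes tested there, 3 were higher and 1 lower, beside 970 and 1722 of all 7920. With only local backgrounds over 100 left out, 9 were tested, 5 higher and 2 lower, beside 6.94% and 12.5% of all. With the span of 0.05 as well, 6 were higher, Angptl4 and the downstream Lpl probe among them, and 1 lower, beside 4.99% and 13.5%. The 8 probes without a test in the main analysis are the 5 of Apob, the upstream Lrp1 probe, and the flagged probes of Lpl and Apoc1.

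With that span the order of the mean log2 ratios was Lpl downstream (2.49), Angptl4 (1.03), Vldlr upstream (1.00), Apod (0.77), Apoe (0.71), Lrp1 (0.69), Vldlr downstream (0.33), Apoc1 (-0.24) and Lpl upstream (-1.30). Apod's place is not settled, since its cell-labelled signal was not well above background and the scanner put it highest of all, at 3.16. The array values of Lpl downstream (2.87 and 2.10) did not overlap those of Angptl4 (1.21 and 0.86). Neighbours from Angptl4 to Lrp1 overlapped. Lrp1 (0.63 and 0.74) and Vldlr downstream (0.14 and 0.53), Vldlr downstream and Apoc1 (-0.14 and -0.34), and Apoc1 and Lpl upstream (-1.39 and -1.22) did not.

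**Figure D3:**
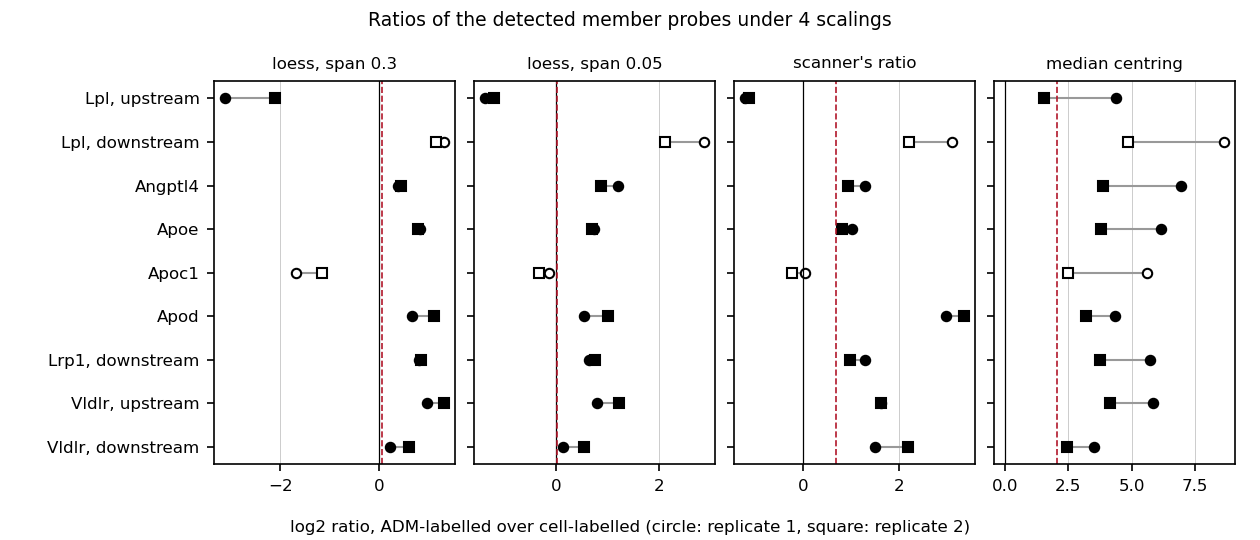
Log2 ratio of ADM-labelled over cell-labelled RNA for the 9 detected probes on each array (circle, replicate 1; square, replicate 2) under 4 scalings, with only local backgrounds over 100 left out in the loess and median-centred panels and no spot left out in the scanner's, open symbols for the probes without a value in the main analysis, and the median of all tested probes as a dashed line. By its mean the upstream Lpl probe is the lowest in every panel and the downstream one the highest in all but the scanner's, where Apod is, Apoc1 moves from -1.42 to near 0 between the loess spans, and every probe is above 0 with median centring.

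The rest of the lipoprotein pathway was taken from a list of 65 genes, of which 63 were found on the array by name and 39 were tested through their brightest probe. In the ADM-labelled RNA 11 of 39 were higher (28.2%) and 3 lower (7.69%), with a median of 0.15. Over the brightest probes of all 13186 genes tested, 6.33% were higher and 13.2% lower. These shares depend on the filter, since many tested probes were well above background in 1 RNA only. With the filter on both RNAs, 8 pathway genes were higher and 2 lower. Beside them stood 970 and 1722 of 7920 probes, larger shares of all than in the main analysis. How many pathway genes were tested under that filter is not given here. The former are also counts of genes and the latter of probes, so their shares are not compared. Receptors and adaptors had 5 of 13 higher and 8 that did not pass the test. Lipid transfer and efflux genes had 3 of 9 higher and 6 that did not pass, and lipases and their controls 2 of 8 higher and 2 lower. Genes listed as apolipoproteins had 1 of 9 higher and 1 lower. That group also held Apobec1, which is not an apolipoprotein, and Apoo and Apool, taken as such by name. None of these passed the threshold.

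Among those higher were the cholesterol and phospholipid exporters Abca1 (1.76 ± 0.11; limma adjusted p = 0.00791), Abcg1 (1.49 ± 0.50; limma adjusted p = 0.0284) and Abca7 (1.25 ± 0.29; limma adjusted p = 0.0228), and the sorting receptor Sort1 (1.68 ± 0.61; limma adjusted p = 0.0295), each ± SD with n = 2. All 4 Sort1 probes were called higher, from 0.60 to 1.68. Higher too were the fatty acid transporter Cd36 (1.01 ± 0.30, SD, n = 2; limma adjusted p = 0.0308), the receptors Lrp10 (0.98) and Lrp12 (0.80), the protease Furin (0.99), the proteoglycan Sdc1 (0.75) and the chaperone apolipoprotein Clu (0.90), with limma adjusted p from 0.0229 to 0.0297 over these last 5. Scarb1, the HDL receptor, lacked a value on array 1 for the same local background flag and gave 1.72 with only backgrounds over 100 left out (limma adjusted p = 0.00657). Abca1, Lrp12, Sdc1 and Clu were above background in the cell-labelled RNA on 1 of 2 arrays. The 11 genes called higher had median-centred values from 3.72 to 5.86, above the 2.04 of all tested probes. Bright genes that were not called, such as Lmf1 (4.35) and Npc2 (4.64), lay in the same range, so these values do not set the called genes apart.

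Among those lower were Saa3, an acute-phase apolipoprotein of HDL (-2.25 ± 0.56, SD, n = 2; limma adjusted p = 0.0180), and Gpihbp1, which anchors lipoprotein lipase on endothelium (-1.63 ± 0.71, SD, n = 2; limma adjusted p = 0.0375). In net signal Gpihbp1 read 145 and 57.4 in the ADM-labelled and 39.9 and 110 in the cell-labelled RNA, so the groups overlapped. Saa3 read 648 and 299 against 90.3 and 313, which overlapped as well, and with median centring it had 0.80, under the 2.04 of all tested probes. Lmf1, a maturation factor of the lipase, had 0.39 ± 0.13 (SD, n = 2; limma adjusted p = 0.102). Apoa1, the main protein of HDL, was not well above background in either RNA, and Lrp8 was so on 1 array in the cell-labelled RNA alone, so neither was tested.

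**Figure D4:**
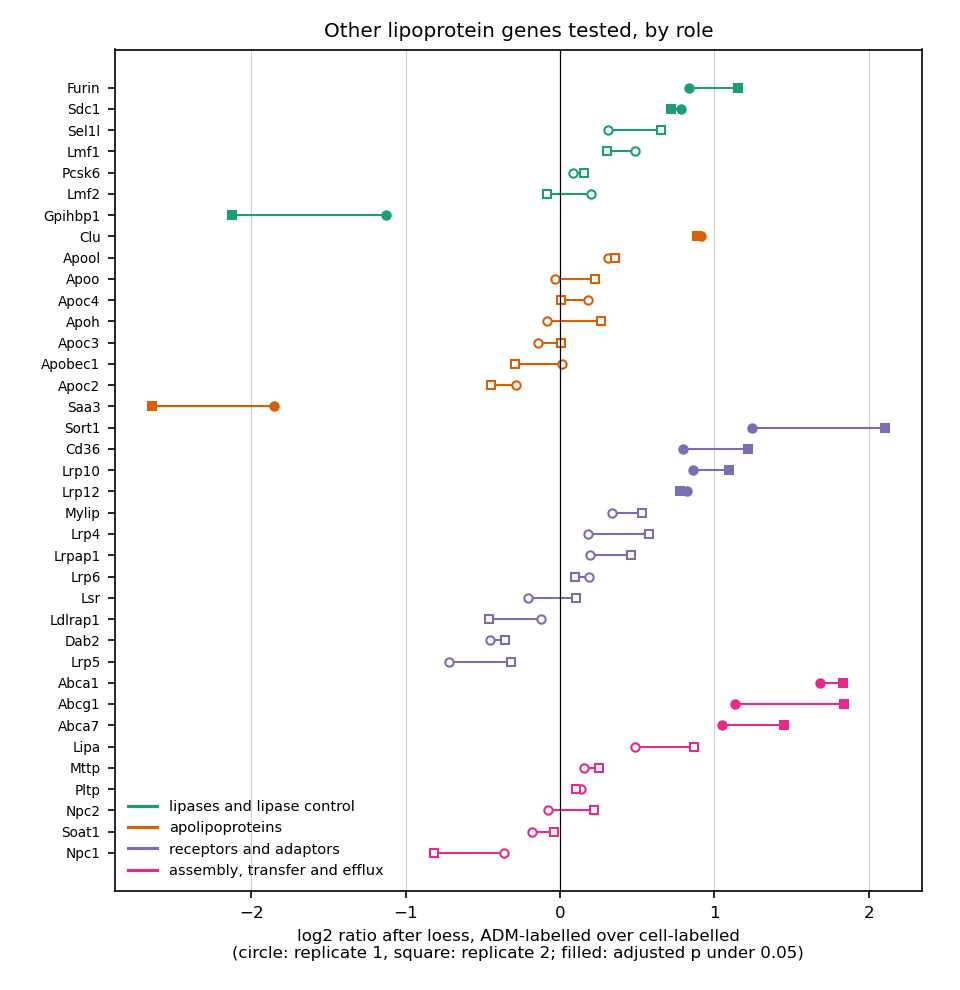
Log2 ratio after loess for 37 of the 39 tested lipoprotein genes outside the 8, grouped by role, with a circle for replicate 1 and a square for replicate 2, filled where the limma adjusted p was under 0.05. Receptors and the efflux genes Abca1, Abcg1 and Abca7 have filled symbols to the right of 0 only, and Saa3 and Gpihbp1 lie to the left.

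Among 9299 genes named through RefSeq accessions, and with the span of 0.3, those with the smallest distance to the upstream Lpl probe over both array ratios included Nfkbia (-3.51 and -2.24) and Ddx21 (-3.34 and -1.92), and 9 genes lay within a distance of 0.5. Those nearest to Apoe were Mknk1 (0.76 and 0.78), Gtf3c1 (0.77 and 0.80) and Plpp6 (0.77 and 0.75), and 1068 genes lay within the same distance. With 2 arrays the distance is a description only.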

How the data were processed

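RNA of ADMs and of donor 3T3-L1 adipocytes was measured on 2 dye-swapped Agilent arrays that shared a slide and a scan. Per the file headers, Feature Extraction 10.5.1.1 gave the spot and local background intensities, annotated on mouse build mm7. The authors also deposited the scanner's log10 ratios, background-subtracted and dye-normalized per the file headers. The series table as deposited equals them, with the sign turned on array 2, so both of its columns read ADM-labelled over cell-labelled by the dye labels, and each column has a median of 0. They were converted to log2.

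Spots with an outlier flag of the feature or of its local background were left out (2566 on array 1 and 1942 on array 2), then normexp (offset 50) and loess (span 0.3, controls at weight 0) were applied in R 4.3.3 with limma 3.58.1. This left 3198 of 41174 probes without a value on an array. Probes were tested (lmFit, eBayes, Benjamini-Hochberg at 0.05 over all tested probes) where at least 50% of spots carried the well-above-background flag in 1 RNA of both replicates. No probe was saturated. With 1 residual degree of freedom the fit added 2.91 prior degrees. In data simulated on 18117 probes with that spread, 50 changes of each size were planted. Of these, 10% of changes of 1 and 96% of changes of 2 (log2) were called, with 13 false calls. The measured data held many more calls, 1001 higher and 1971 lower, so these rates do not carry over to them. Having only 2 arrays limits precision. RefSeq accessions named 22951 probes. With no mm7 genome used here, exon and UTR positions were not determined, and no probe sequence is printed.

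The members, lists and tests were chosen with earlier results of these data known. Named are every member probe, the listed pathway genes that passed the threshold, a fixed set of pathway genes whatever their values, and the 3 nearest genes to Lpl and Apoe. Apoc4 and the further probes of Sort1 were named after their values were seen. Alternatives covered background, scaling, filters, moderation and each array alone. The local background limit of 100 and the span of 0.05 were chosen after seeing the data. Some genes that these rules name are not reported here, though the counts include them.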

Additional observations from a re-analysis of the deposited data

How the results depend on the processing

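The upstream Lpl probe was reversed with median centring (2.97), where limma's prior degrees of freedom are infinite and p-values do not reflect a probe's own spread. It lost its call with plain subtraction (-1.55; limma adjusted p = 0.0509), an eBayes trend (0.115) and the local background flag ignored (-3.74; 0.547), and its value ran from -3.39 to -2.12 over single arrays, which allow no test. Member probes called higher were 7 with median centring, 1 with plain subtraction and 0 with the local background flag ignored. Those called lower were 0 under each of these and with the eBayes trend, and 2 with only backgrounds over 100 left out. Apoe, Lrp1 and upstream Vldlr lost their calls with plain subtraction (limma adjusted p = 0.0907, 0.0823 and 0.0584), while Apod kept its call. Pathway genes called higher were 26 with median centring, 17 with the processed signals and with the series table, 2 with plain subtraction and 0 with the flag ignored. Those called lower were 0 with median centring, 5 with offset 10 and 0 with the flag ignored. Of all probes, 10773 were higher with median centring, 5798 with the processed signals and with the series table, 1867 with offset 10, 462 with plain subtraction, 1711 with the eBayes trend, 1783 with scaling between arrays and 0 with the flag ignored. Lower were 265 with median centring, 3063 with offset 10 and 0 with the flag ignored, where limma gave 677 at an unadjusted p under 0.05. The share of calls that were higher was 33.7% in the main analysis, 97.6% with median centring, 69.2% with the processed signals and 25.2% with the span of 0.05 alone. The cause of these moves was not tested, except that the span's curve is shown against the probes. Each array holds both RNAs of 1 replicate, so every ratio is within a pair and the fit is already a paired analysis.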

Other observations

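The scanner's flag for an outlying local background fell on bright spots more often than on others. In replicate 1, 18.8% of the 2086 gene spots with more than 10000 scanner units net in the ADM-labelled RNA carried it, against 4.94% of all gene spots. In replicate 2 these shares were 6.87% of 859 and 3.56%. Downstream Lpl, Apoc1 and Scarb1 lost their value on array 1 this way. Only 13 and 8 spots of the arrays had a local background over 100 scanner units.

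Fitted over genes, Apoe, Apod, Lrp1 and Vldlr were called higher and Lpl lower whether the brightest probe or the median of tested probes stood for a gene. Vldlr had 1.14 and 0.79 in these fits. Lpl is there represented by its upstream probe alone.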
